A study of Mus musculus with 3 samples.

Results

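Transcript levels of 10 immediate early and AP-1 genes were examined in mouse liver 2 days after introduction of human YAP. The genes were Fos, Fosb, Jun, Junb, Atf3, Egr1, Ier2, Ier3, Klf6 and Myc. They were chosen by name, with earlier results of these data known. Every non-control probe that carried their RefSeq entry was used, which gave 1 probe for each gene. These genes are 10 of 20280 genes with a named probe, and 10 of 13623 genes measured on every array. Here, measured means well above background in at least 50% of the spots of a probe.

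Gene expression was profiled on 3 one-colour Agilent arrays hybridised with Cy3-labelled RNA from whole liver, 1 array each for YAP wild type (WT), YAP (1SA) and YAP (2SA). The strain label of every array was c57BL6/J, and per the study's methods the mice were mainly young adult males. Human YAP with a Myc tag was given by hydrodynamic tail vein injection (HTVi), in which a large volume of plasmid solution is pushed rapidly into the tail vein. The vector used a hepatocyte-specific alpha-fetoprotein enhancer with a minimal albumin promoter, so only hepatocytes that took up plasmid would carry the protein, and the liver is a mosaic. HTVi itself injures the liver, and every group received it. YAP (1SA) and YAP (2SA) carry serine-to-alanine changes that let YAP escape inhibition by the Hippo pathway. The WT group also received human YAP, and no liver without it was analysed here. Whether an array held RNA of 1 mouse or of a pool was not given, and the number 2 stands in the title of the WT array.

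With 1 array per group no test between groups was possible, and the construct and the liver sample cannot be told apart. The signal of a spot is its processed intensity, in arbitrary units. It was divided by the 75th percentile of its own array (WT 290.8, 1SA 275.7, 2SA 319.5), and differences are differences of log2 values after this scaling. The only repeat measurement was that between spots of the same probe. For the 282 measured probes with 10 spots, the SD of a difference between single spots was 0.10, and 0.20 is the limit expected to hold 95% of differences from this source alone. Dim spots varied more, so the SD at the signal of each gene is given beside its differences. In whole liver, fewer cells of a type and less RNA per cell cannot be told apart. Albumin and the other hepatocyte markers were well above background on all 3 arrays (14 of 14 genes) of this labelled liver tissue.

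Immediate early genes are transcribed within minutes of a stimulus, without new protein synthesis, through factors such as SRF and CREB that already sit in the cell. Several of their products, Fos, Fosb, Jun, Junb and Atf3, are bZIP proteins that pair with each other as AP-1 or ATF dimers and then regulate later genes. In liver they are known for their response to partial hepatectomy, injury and handling, and YAP bound to TEAD is known to share many enhancers with AP-1.

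The members did not share 1 order over the arrays, and each mutant had its own members at the top. Egr1 and Myc were more than 2-fold higher in 1SA than in WT, and Fos and Ier3 were more than 2-fold higher in 2SA than in WT. Jun, Egr1, Ier2 and Myc were highest in 1SA (4 of 10), Fos, Junb, Ier3 and Klf6 in 2SA (4 of 10), and Fosb and Atf3 in WT (2 of 10). WT was the lowest array for 7 of the 10. Over all measured genes, 30.3% were highest in WT, 38.5% in 1SA and 31.3% in 2SA.

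In 1SA relative to WT, 2 of 10 members were at least 2-fold higher, against 0.727% of all measured genes, and 0 were at least 2-fold lower, against 1.14%. In 2SA relative to WT, 2 of 10 were at least 2-fold higher, against 1.12% of all genes, and 0 were lower, against 0.543%. Between the mutants, Ier3 was at least 2-fold higher in 2SA than in 1SA (1 of 10, against 2.47% of all genes) and Egr1 was at least 2-fold lower (1 of 10, against 1.12%). In any of these comparisons 4 of 10 members were 2-fold apart, and 4.98% of all genes were. As the members were chosen with earlier results of these data known, these shares are a description and not a test.

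Smaller differences were frequent on these arrays. Of the 10 members, 9 differed between 1SA and WT by more than the limit of 0.20, as did 36.0% of all genes. In 2SA relative to WT it was 7 of 10 members and 35.8% of all genes, and in 2SA relative to 1SA it was 7 of 10 members and 46.4% of all genes. The limit is that of a typical repeated probe, and spots of dim members varied more. Fosb is among the 9, though its difference (-0.28) was under 2 SDs at its own signal (SD 0.18). The shares of all genes were not matched to the members for signal. The median difference of the members was 0.27 in 1SA relative to WT, 0.38 in 2SA relative to WT and -0.01 in 2SA relative to 1SA. Over all genes these medians were -0.002, -0.03 and -0.03. The members above 0 numbered 7, 8 and 5 of 10, beside 49.7%, 43.6% and 45.6% of all genes. The median of 2SA relative to 1SA lay near 0 because members went both ways, from -1.13 for Egr1 to 1.18 for Ier3. Both mutant comparisons share the WT array, so a low or high WT value enters both.

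**Figure D1:**
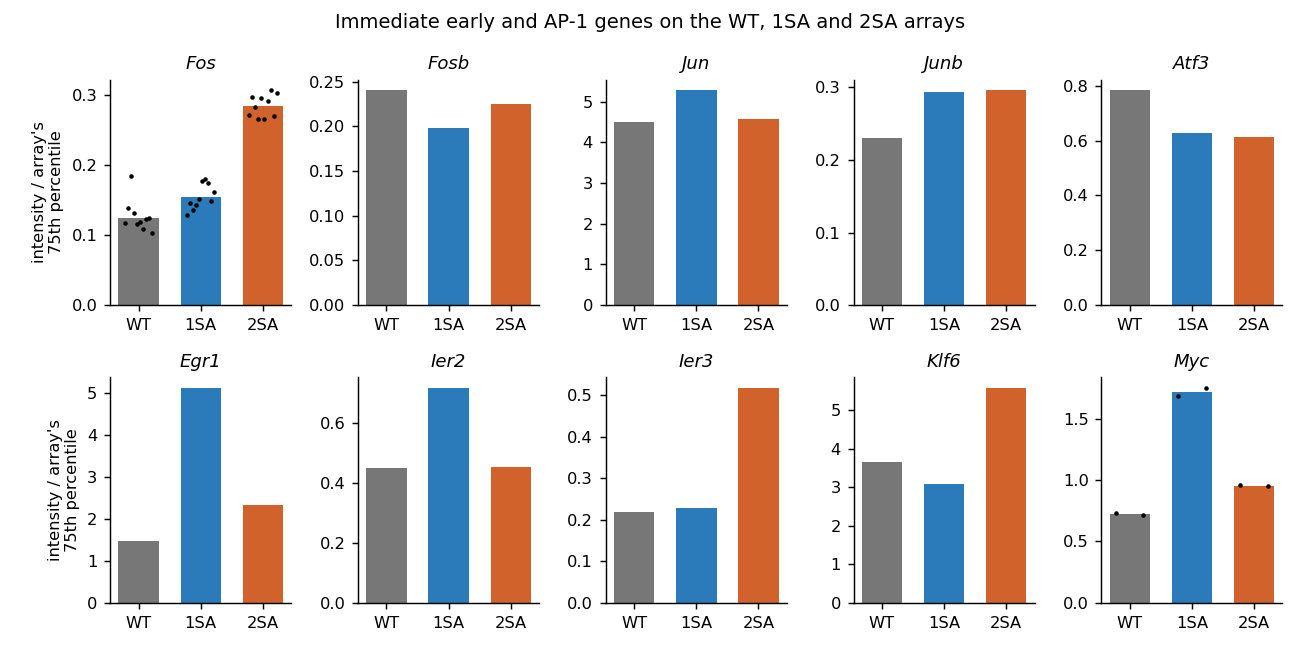
Signal of the 10 members on the WT, 1SA and 2SA arrays, 1 panel for each gene; bars show processed intensity divided by the 75th percentile of the array (linear axis from 0), and dots show single spots for Fos and Myc. Egr1 and Myc are highest in 1SA, whereas Fos and Ier3 are highest in 2SA.

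Promoter sequences are shown for Fos, Klf6 and Ier3, the members that stood higher in 2SA than in both other arrays by more than 0.20. Each is the 250 bases before the transcription start, 5′ to 3′ on the strand of the gene, from RefSeq on build GRCm38.p6. The arrays were annotated on mm9, and no coordinates were carried between builds. The windows lie at chr12:85473640-85473889 for Fos, chr13:5861239-5861488 for Klf6 and chr17:35821463-35821712 for Ier3, all on the plus strand. Capitals mark matches to the motifs named in the next paragraph.
Fos: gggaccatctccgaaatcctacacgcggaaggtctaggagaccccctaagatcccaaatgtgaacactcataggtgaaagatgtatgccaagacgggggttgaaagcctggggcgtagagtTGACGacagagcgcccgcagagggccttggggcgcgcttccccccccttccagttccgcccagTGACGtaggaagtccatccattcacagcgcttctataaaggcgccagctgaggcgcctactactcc
Klf6: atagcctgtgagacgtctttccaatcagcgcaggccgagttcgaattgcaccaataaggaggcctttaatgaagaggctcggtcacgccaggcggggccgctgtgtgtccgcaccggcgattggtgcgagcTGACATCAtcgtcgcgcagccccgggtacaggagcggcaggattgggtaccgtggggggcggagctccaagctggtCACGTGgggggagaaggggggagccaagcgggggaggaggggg
Ier3: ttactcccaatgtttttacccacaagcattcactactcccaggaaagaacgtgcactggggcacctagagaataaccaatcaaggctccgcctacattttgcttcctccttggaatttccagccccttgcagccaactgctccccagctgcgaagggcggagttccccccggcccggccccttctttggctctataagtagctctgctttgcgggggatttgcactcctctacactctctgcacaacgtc

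Of the 10 members, 7 matched the promoter table, which holds 32851 promoters of this length. Egr1, Ier2 and Myc did not, so their promoters were not searched. Motifs were searched on both strands. The full CRE (TGACGTCA, the site of CREB and ATF dimers) was in 0 of the 7 and in 1.55% of all promoters. The AP-1 site (TGANTCA) was in 0 of 7 and 6.75% of all, the TEAD site (GGAATG) in 0 and 12.6%, the EGR site (GCGTGGGCG) in 0 and 0.536%, and the CArG box of SRF in 0 and 1.47%. The E-box (CACGTG), which MYC with MAX can bind, was in the Klf6 window alone, 43 to 38 bases before the start, and in 6.02% of all promoters. Another pair of patterns was added after the sequences had been seen. TGACG, the first letters of the CRE, was in Fos, Fosb, Junb and Atf3 (4 of 7) and in 17.8% of all promoters, and Fos held it at 129 to 125 and at 66 to 62 bases before the start. TGANNTCA, a pattern that takes in every full CRE, was in Jun and Klf6 (2 of 7) and in 11.9% of all, in both genes as TGACATCA, which in Klf6 lay 119 to 112 bases before the start. The Ier3 window held none of these patterns. The 7 windows held from 54.4% (Ier3) to 68.8% (Fosb) G and C, beside a median of 52.4% over all promoters. The shares of all promoters were not adjusted for this. These are letters in a short window, and the arrays measured no binding.

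Fos and Fosb are the Fos-family partners of AP-1, which bind DNA as dimers with a Jun protein. Fos (NM_010234) was read by a probe with 10 spots and averaged 36.3 in WT, 42.4 in 1SA and 90.9 in 2SA. Single spots ranged from 30.0 to 53.5 on WT with a median of 35.1, from 35.6 to 49.5 on 1SA with a median of 41.4, and from 84.7 to 97.8 on 2SA with a median of 91.7. The spots of 2SA did not overlap those of the other arrays, and those of WT and 1SA did overlap. After scaling, 2SA was higher than WT by 1.19 ± 0.08 and higher than 1SA by 0.89 ± 0.06 (SE over 10 spots of 1 array each). 1SA was higher than WT by 0.30 ± 0.09. These errors cover spots and not animals. Among all measured genes, the 2SA difference of Fos from WT ranked 93 of 13623. With normexp background correction, an alternative that adds an offset to the signal, it was 0.52 and no longer 2-fold.

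Fosb (NM_008036), on 1 spot, had an intensity of 69.8 in WT, 54.7 in 1SA and 72.0 in 2SA. Its difference in 1SA from WT (-0.28) passed the limit of 0.20 but was under 2 SDs at its own signal (SD 0.18), and 2SA differed from WT by -0.09 and from 1SA by 0.19. No pair of its arrays was thus apart by more than the error between spots of that signal. In 2SA, Fosb stood at 93.9% of WT and Fos at 228%.

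Jun and Junb are the Jun-family partners, which form AP-1 with Fos proteins or with each other. Jun (NM_010591) had an intensity of 1305 in WT, 1453 in 1SA and 1462 in 2SA. The differences from WT were 0.23 for 1SA and 0.03 for 2SA, with an SD of 0.08 and 0.09 at this signal. WT and 2SA differed by less than the limit, and 1SA lay just past it above both (2SA relative to 1SA, -0.20). Junb (NM_008416) had an intensity of 66.9 in WT, 81.0 in 1SA and 94.4 in 2SA. Both mutants stood 1.28-fold above WT, by 0.35 in 1SA and 0.36 in 2SA with an SD of 0.17 and 0.16, and they differed from each other by 0.01. Junb was thus lowest in WT, with no order between the mutants.

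Atf3 is a stress-induced bZIP protein of the ATF family that can pair with Jun. Atf3 (NM_007498) had an intensity of 228 in WT, 173 in 1SA and 195 in 2SA. It was the only member lower than WT by more than 0.20 in both mutants, at -0.32 in 1SA and -0.36 in 2SA with an SD of 0.11 for each. The mutants differed by -0.03, so WT was highest and the mutants had no order. Of the 5 bZIP members, Fos was the only one that passed 2-fold in any comparison.

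**Figure D2:**
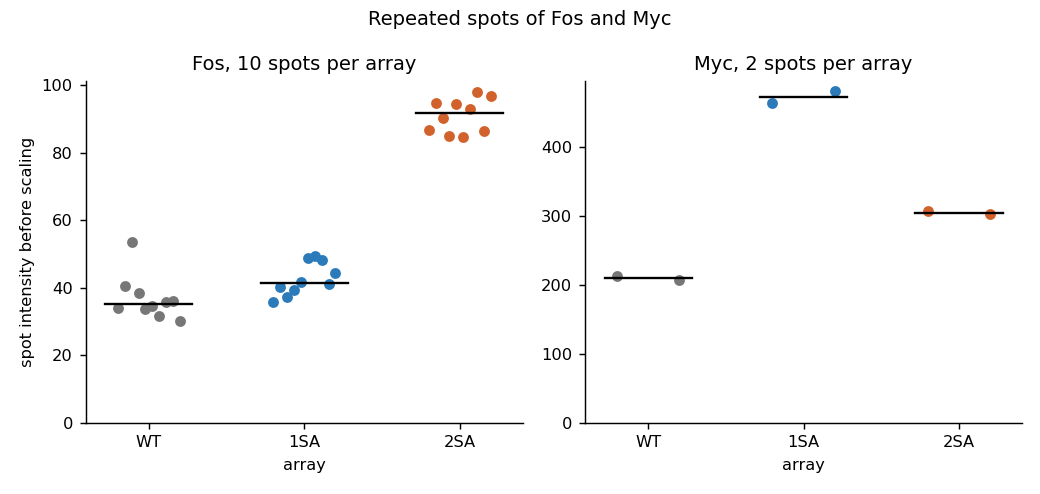
Processed intensity (arbitrary units, before scaling) of each spot of the 2 members with repeated spots, Fos with 10 spots and Myc with 2 spots on each array; lines show medians. The Fos spots of 2SA, from 84.7 to 97.8, lie above every spot of WT and 1SA, and the Myc spots of 1SA, 463 and 482, lie above those of WT and 2SA.

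Egr1 and Klf6 are zinc finger factors that bind GC-rich DNA. Egr1 (NM_007913) is a classical SRF and ERK target, and had an intensity of 431 in WT, 1408 in 1SA and 744 in 2SA. All 3 arrays were apart by more than the error between spots, in the order WT, 2SA, 1SA. Egr1 was 3.45-fold higher in 1SA than in WT (1.79 on the log2 scale), 1.57-fold higher in 2SA than in WT (0.65) and 2.19-fold lower in 2SA than in 1SA (-1.13), with an SD of 0.09 for each difference. The 1SA difference was the largest of any member and ranked 20 among 13623 genes. With normexp it remained past 2-fold (1.65), whereas the difference between the mutants did not (-0.93).

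Klf6 (NM_011803), a Krüppel-like factor induced early in injured liver, had an intensity of 1063 in WT, 854 in 1SA and 1779.6 in 2SA. It was lower than WT in 1SA (-0.24) and higher than WT in 2SA (0.61), with an SD of 0.09 for each. It was the only member beyond the limit of 0.20 on opposite sides of WT. The mutants differed by 0.85, or 1.80-fold, in the order 1SA, WT, 2SA.

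Ier2 and Ier3 are short-lived immediate early products. Ier2, a nuclear protein, and Ier3, which modulates survival and ERK signalling, share a name but not a sequence family. Ier2 (NM_010499) had an intensity of 130.4 in WT, 197 in 1SA and 145 in 2SA. Only 1SA stood apart, at 1.59-fold WT (0.67, SD 0.12), whereas 2SA differed from WT by 0.01 (SD 0.13). Ier3 (NM_133662) had an intensity of 63.5 in WT, 62.9 in 1SA and 165 in 2SA. Here only 2SA stood apart. Ier3 was 2.37-fold higher in 2SA than in WT (1.24, SD 0.16) and 2.26-fold higher in 2SA than in 1SA (1.18, SD 0.15), and 1SA differed from WT by 0.06 (SD 0.18). The 2SA difference from WT ranked 75 of 13623 genes and was the largest of any member in that comparison. With normexp background correction it was 0.74 from WT and 0.67 from 1SA, no longer 2-fold.

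Myc is a bHLH factor that pairs with MAX and drives ribosome, nucleotide and polyamine synthesis. Myc (NM_010849), on 2 spots, had an intensity of 209.6 in WT, 472 in 1SA and 305 in 2SA. The spots were at 207 and 212 in WT, 463 and 482 in 1SA, and 303 and 306 in 2SA, without overlap. Myc was 2.38-fold higher in 1SA than in WT (1.25 ± 0.03), 1.32-fold higher in 2SA than in WT (0.40 ± 0.02) and 1.80-fold lower in 2SA than in 1SA (-0.84 ± 0.03; SE over 2 spots). Its order, WT, 2SA, 1SA, was that of Egr1, and its 1SA difference ranked 51 of 13623 genes. The introduced YAP carried a Myc tag in every group, and whether the Myc probe can read the tag was not tested.

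**Figure D3:**
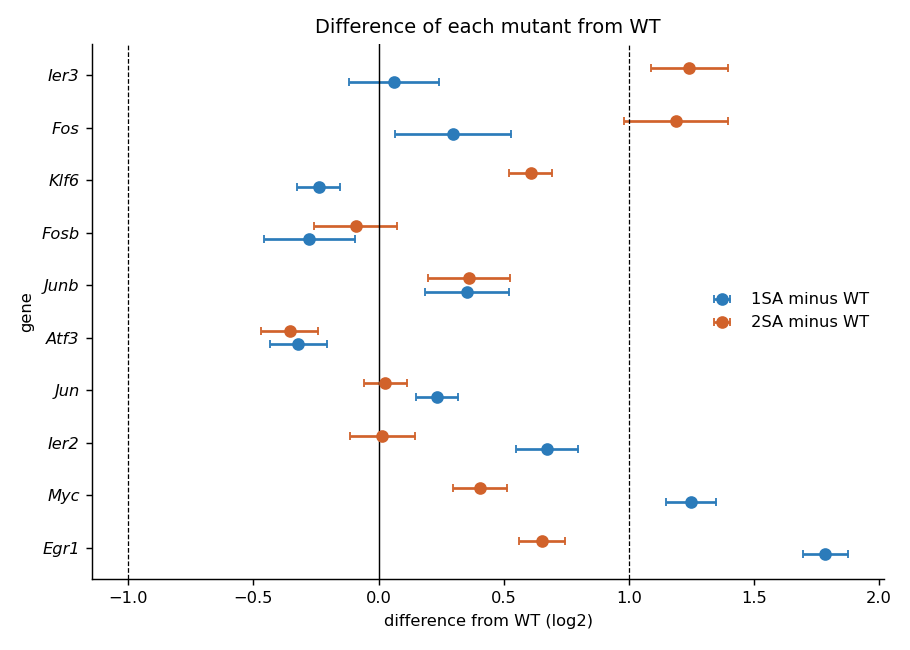
Difference of each member from WT (log2 of scaled signal) in 1SA and in 2SA; dots are differences between single arrays, error bars are the SD of a difference between single spots of like signal, and dashed lines mark 2-fold. Egr1 (1.79) and Myc (1.25) pass 2-fold in 1SA, and Fos (1.19) and Ier3 (1.24) in 2SA.

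Egr1 and Myc had the widest range over the 3 arrays, and the genes nearest to them in pattern were sought among 13042 named genes. Likeness was the distance between genes over the 2 differences from WT, so it rests on 3 arrays. The nearest to Egr1 were Pax2 (distance 0.21), Acacb (0.27) and Lipn (0.37), and 0 genes lay within 0.2. Pax2 had an intensity of 4308 in WT, 13202 in 1SA and 6516 in 2SA. The nearest to Myc were Obp2a (0.04), Crygn (0.07) and Chac1 (0.11), and 10 genes lay within 0.2. Chac1 had an intensity of 278 in WT, 621 in 1SA and 435 in 2SA. Genes were taken by the name of the probe, and whether these probes, such as that of Pax2, read the named gene was not tested.

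Other genes of the pathway were then described by 8 lists, read beside the background shares given above. The first held the remaining AP-1 and Maf proteins, which compete with the members for partners. Of 14 listed, 12 were measured, with a median of -0.09 in 1SA relative to WT, -0.02 in 2SA relative to WT and 0.22 in 2SA relative to 1SA. None of the 12 was 2-fold apart from WT in either mutant. Batf, a leukocyte AP-1 partner of Jun proteins, had an intensity of 112 in WT, 69.8 in 1SA and 163 in 2SA, and was 1.01 higher in 2SA than in 1SA. It was no longer 2-fold apart under quantile normalisation, the array median or normexp background correction. Fosl1, the further Fos-family gene known as a YAP and AP-1 target, was not well above background on any array. Jund and Fosl2, the remaining Jun and Fos proteins, were chosen after their values were seen. They differed from WT by 0.21 and 0.34 in 1SA and by -0.15 and 0.01 in 2SA. With the stricter filter on dim probes, which left 7 genes, the median between the mutants was -0.32, the opposite sign.

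Of 20 other immediate early transcription factors 16 were measured, with medians of -0.08, 0.12 and 0.24 in the same order of comparisons. Nr4a1, a nuclear receptor induced with Egr1 in many tissues, had an intensity of 261 in WT, 858 in 1SA and 619 in 2SA. It was higher than WT by 1.79 in 1SA and by 1.11 in 2SA, and with normexp the 2SA difference was no longer 2-fold. Csrnp1, a nuclear protein induced by AXIN1, had an intensity of 1032 in WT, 2272 in 1SA and 1179 in 2SA, and was higher in 1SA than in WT (1.22) and lower in 2SA than in 1SA (-1.16). Both had their highest array in 1SA, as did Egr1 and Myc. They were the only genes of the list 2-fold apart from WT. Egr3, Egr4 and Nr4a3 were not well above background on any array. With the stricter filter, which left 10 genes, the medians were 0.42, 0.20 and -0.21, so the signs of the first and last turned.

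The list of 30 other immediate early effectors, which act as phosphatases, growth-arrest proteins, kinases, secreted factors and inhibitors, had 27 measured genes. Relative to WT, 4 were 2-fold higher and 0 lower in 1SA, and 4 higher and 2 lower in 2SA. Between the mutants, 2SA was 2-fold higher for 4 and lower for 4. The medians were 0.03, 0.15 and 0.11. The 4 genes higher in 1SA were Dusp1, Gadd45g, Plk3 and Socs3. Dusp1, the phosphatase that switches off MAP kinases, had an intensity of 808 in WT, 1635 in 1SA and 1123 in 2SA (1.09 and 0.34 against WT). Plk3, a stress-responsive kinase, had 2470 in WT, 8809 in 1SA and 1166 in 2SA. It was higher than WT in 1SA (1.91) and lower in 2SA (-1.22), and 2SA was lower than 1SA by 8.75-fold. Plk3 and Gadd45g, a growth-arrest gene, were the only effectors 2-fold apart from WT in both mutants, and in both the directions were opposite. Gadd45g had 4407 in WT, 13314 in 1SA and 2256 in 2SA (1.67 and -1.10). Socs3, the feedback inhibitor of cytokine signalling, had 805 in WT, 1644 in 1SA and 709.6 in 2SA (1.11 and -0.32). The median of the list in 1SA lay near 0 and was -0.01 under quantile normalisation and with normexp.

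The 4 effectors 2-fold higher in 2SA than in WT were Gadd45a, Gadd45b, Ccn1 and Ccn2. Gadd45a, a growth-arrest and stress gene, had an intensity of 292 in WT, 386 in 1SA and 824 in 2SA (0.48 and 1.36 against WT). Gadd45b, which restrains JNK signalling in liver, had 220.2, 141 and 715 (-0.57 and 1.56). Ccn1 and Ccn2, matricellular proteins and standard YAP targets, were higher than WT by 1.89 and 2.15 in 2SA, and differed from WT by 0.59 and -0.44 in 1SA. Ccn2 is also named ctgf. By real-time PCR, the study found ctgf raised with every active YAP mutant, and not with wild type YAP, in the first days after injection. The 1SA array did not show such a rise, with a Ccn2 intensity of 633 in WT and 441 in 1SA. The reason for this difference from the PCR was not tested. The 3 Gadd45 genes thus had different highest arrays, 1SA for Gadd45g and 2SA for Gadd45a and Gadd45b. Between the mutants, Plaur, the urokinase receptor, was 1.21 higher in 2SA, and Errfi1, an inhibitor of EGF receptor signalling, was lower in 2SA (-1.05). Of the 27, 17 were highest in 2SA.

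Upstream regulators stayed within 2-fold. Of 22 kinases and SRF, TCF and CREB factors, all measured, 0 were 2-fold apart in any comparison, and the medians were 0.01, -0.07 and -0.08. The widest differences were those of Mapk9 (-0.47) and Map2k7 (-0.46), both in 2SA relative to 1SA, and the dimmer Mapk9 probe differed by 0.04. Of 14 feedback genes of ERK and JNK signalling 11 were measured, with medians of -0.01, -0.01 and 0.06. Dusp4, a nuclear MAP kinase phosphatase, was the only one past 2-fold, with an intensity of 41.7 in WT, 84.4 in 1SA and 37.8 in 2SA (1.09 and -0.28 against WT). With normexp it was not 2-fold apart in any comparison.

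Genes known as outputs of AP-1 lay mostly below WT in 1SA. Of 20 listed, 17 were measured and 14 of these were below WT in 1SA, with a median of -0.95 in 1SA relative to WT, 0.18 in 2SA relative to WT and 0.95 in 2SA relative to 1SA. Relative to WT, 7 were 2-fold lower and 0 higher in 1SA, while 3 were 2-fold higher and 0 lower in 2SA. Between the mutants, 2SA was higher for 8 and lower for 1. With normexp, the counts higher in 2SA were 2 relative to WT and 6 relative to 1SA. Sprr1a, a small proline-rich protein of stressed and regenerating cells, had an intensity of 1337 in WT, 316 in 1SA and 1763 in 2SA. It was 4.01-fold lower than WT in 1SA and 1.20-fold higher in 2SA. Spp1, or osteopontin, had 3536 in WT, 1009 in 1SA and 3132 in 2SA (-1.73 and -0.31). Both were lowest in 1SA, and Spp1 was also below WT in 2SA.

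The other genes 2-fold lower in 1SA than in WT were S100a6 (-1.52), Mmp13 (-1.42), Mmp12 (-1.11), Lgals3 (-1.11) and Timp1 (-1.07). Their differences from WT in 2SA were 0.25, 0.18, -0.16, 0.19 and -0.19. The 3 genes higher in 2SA than in WT were Tnfrsf12a, the TWEAK receptor (1.48), Plau, or urokinase (1.24), and Ccl2, a monocyte chemokine (1.15). In 1SA they differed from WT by -0.35, -0.33 and -0.95. Fst, or follistatin, went the other way, at 0.79 in 1SA and -0.55 in 2SA. Mmp3 was not well above background in 1SA and was at least 3.77-fold lower there than in WT. It falls outside the naming rule and was chosen after its value was seen. The number of genes lower in 1SA depended on the treatment of dim probes. It was 4 of 17 with normexp, whose median was -0.60, and 4 of the 12 genes left by the stricter filter, whose median was -0.38.

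Several of these output genes are also expressed by macrophages, bile duct cells or fibroblasts, and markers of those cells differed between the arrays too. Kupffer cell markers (11 of 12 measured) differed from WT by a median of -0.42 (1SA) and -0.84 (2SA), and their summed scaled signal was 293.5 in WT, 218 in 1SA and 192 in 2SA. In each mutant 9 of 11 lay below WT. Clec4f, which is confined to Kupffer cells in liver, differed by 0.45 and -1.56, and Marco by -1.21 and -1.59. In 2SA, Cd163 (-0.89), Timd4 (-0.97), Vsig4 (-0.90) and Cd5l (-0.84) were also well below WT. Csf1r (-0.01), C1qa (0.16), C1qb (0.04), C1qc (-0.15) and Adgre1 (-0.16) lay closer to WT in 2SA. Cd5l was the brightest gene of the list, with an intensity of 33571 in WT, 23734 in 1SA and 20581 in 2SA. The 2SA median of this list was -0.19 with normexp and -0.16 with the stricter filter. Granulocyte and monocyte markers (10 of 14) summed to 182, 189 and 176, most of it from Csf3r, which differed by -0.05 and 0.00. The Csf3r probe had an intensity of 36349 in WT, and whether it reads Csf3r was not tested. The list medians were 0.08 and 0.02, with 5 and 6 of 10 genes above WT. Its other genes varied more, with Ccr2 higher by 2.33 in 1SA and 0.85 in 2SA, Lyz2 at -0.65 and 0.55, and the neutrophil genes Cxcr2 and Ngp not well above background on any array. Bile duct markers (8 of 9) summed to 13.7, 4.69 and 11.3, of which Spp1, itself on both lists, was the larger part, and Tspan8 differed by -1.04 and -0.13. Stellate cell and fibroblast markers (10 of 11) summed to 60.9, 51.0 and 41.8, with Acta2 at -1.27 and -0.51 and Rgs5 at 0.56 and -0.66.

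T, NK and B cell markers (9 of 13) summed to 53.6, 46.3 and 44.9, mostly through Cd4 (-0.20 and -0.44), which Kupffer cells can also express. Gene by gene the list went the other way in 2SA, with 6 of 9 above WT and a median of 0.19, beside -0.09 in 1SA. The Cd4 probe used had an intensity of 11525 in WT and the dimmer Cd4 probe 23.2. Which of them reads Cd4 was not tested. Gzma (1.75), Cd3g (1.22) and Ptprc (1.14) were 2-fold higher in 2SA than in 1SA (1 of them with normexp), whereas Cd8a and Ncr1 were not well above background on any array. Sinusoidal endothelial markers (12 of 12) summed to 106, 111 and 90.95, with Clec4g (-0.71) and Lyve1 (0.54) widest apart between the mutants. Hepatocyte markers summed to 6791, 7255 and 5995. In 2SA 13 of 14 lay below WT (median -0.20, and -0.09 under quantile normalisation), and in 1SA 11 of 14 lay above it (median 0.10). Tat was at 0.43 in 1SA, and Cyp3a11, at -0.60, was among the 3 exceptions there. Red blood cell genes (6 of 10) had medians above WT, 0.59 in 1SA and 0.35 in 2SA. In 1SA 5 of the 6 lay above WT, with Klf1 at -0.11, and in 2SA all 6 did. Hbb-bt was at 1.01 and 0.53. The 12 reference genes had medians of 0.04 and -0.03. The part of these cell types in the values of the members and of the output genes was not tested.

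No output or partner gene of MYC was 2-fold apart from WT. Of 24 listed output genes of ribosome biogenesis, nucleotide synthesis and growth, 23 were measured, and the medians were 0.04 in 1SA relative to WT, -0.09 in 2SA relative to WT and -0.09 in 2SA relative to 1SA. Odc1, the rate-limiting enzyme of polyamine synthesis, had an intensity of 3311 in WT, 2639 in 1SA and 7008 in 2SA, so it was highest where Myc was not. It was 1.20 higher in 2SA than in 1SA and 0.95 higher than in WT, and its other probes were 1.11 and 1.33 higher than WT, so with the mean of its probes Odc1 passed 2-fold. Of 12 MYC partners and relatives 11 were measured, with medians of 0.07, 0.00 and -0.20 and 0 genes 2-fold apart. Mxd3 (0.75 in 1SA and 0.55 in 2SA) and Mycn (0.62 and 0.23) were widest from WT.

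**Figure D4:**
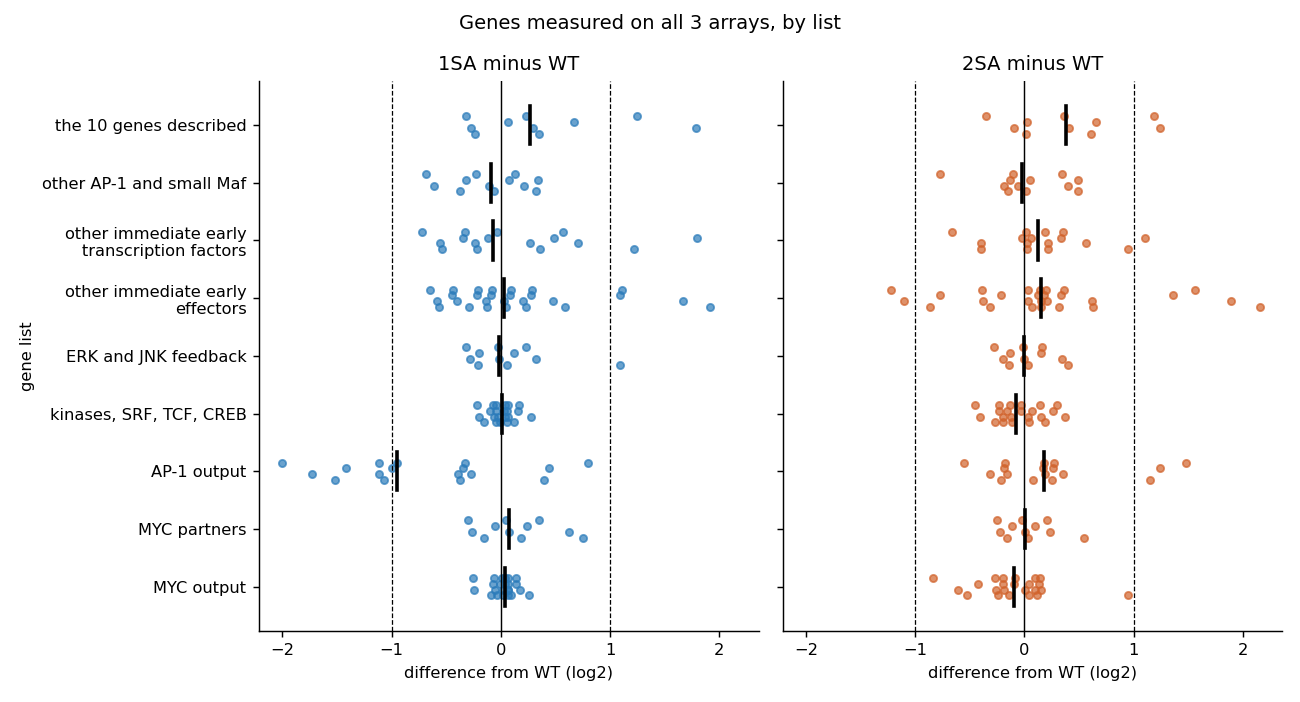
Differences from WT (log2 of scaled signal) in 1SA and in 2SA of the genes measured on all 3 arrays, for the 10 members and 8 pathway lists. Dots are genes, bars are medians and dashed lines mark 2-fold. The AP-1 output genes have medians of -0.95 in 1SA and 0.18 in 2SA, whereas the upstream kinases and factors stay within 2-fold of WT in both.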

How the data were processed

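Total RNA from liver was labelled with Cy3 and hybridised to 1 Agilent array for each of WT, 1SA and 2SA. The authors processed the scans with Feature Extraction (10.10.1.1, as the headers give it), and the intensity they deposited was background-subtracted and corrected within the array. Flags for outlier, saturated and dim spots were used as deposited. The series matrix held the authors' intensity multiplied by 1 constant for each array (3.02 for WT, 3.08 for 1SA and 2.81 for 2SA), of unstated source. Its columns had medians of 61.8, 58.4 and 62.3. It was used only as an alternative, with and without rescaling, the latter chosen after seeing the data. Probes were designed on mm9, as the headers state.

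Each array held 59305 non-control spots for 55681 probes. Outlier spots (148 to 182 on an array) were left out. Log2 intensities were averaged over the spots of each probe, less that of the 75th percentile of the array. On each array, 28972 to 30784 probes were measured, and 0 spots were saturated. RefSeq accessions named 26756 probes through a gene table of GRCm38.p6, used for names only. Where a gene had several probes, the brightest one measured on every array was used.

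Members were described in full. Of the other 17 lists (262 genes, 230 measured), genes 2-fold apart in any comparison were named, and otherwise the 2 widest apart, and for the 2 members of widest range the 3 nearest genes. A few list genes that this rule names are not reported here. The members and the lists were chosen with earlier results of these data known. The number of arrays limits the precision, and no p-value was computed. Alternatives were quantile normalisation, the array median, normexp with an offset of 50 on median spot and background signal, the series matrix, no filter and a stricter filter on dim probes, the mean of probes, and a 3-fold threshold. Scripts were tested on simulated data. Python 3.11.15 (numpy 2.4.6, pandas 2.3.3, matplotlib 3.10.9) and R 4.3.3 with limma 3.58.1 were used.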

Additional observations from a re-analysis of the deposited data

Results flagged for a closer look

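Klf6 lay on opposite sides of WT in the mutants, at -0.24 in 1SA and 0.61 in 2SA on the log2 scale, each past the repeated-spot limit of 0.20. Genes of the other lists did so too, and their values follow as 1SA and then 2SA against WT. Lower in 1SA but higher in 2SA were Batf (-0.61, 0.40), Gadd45b (-0.57, 1.56), Ccn2 (-0.44, 2.15), Plaur (-0.58, 0.63), Ccl2 (-0.95, 1.15), Plau (-0.33, 1.24), S100a6 (-1.52, 0.25), Sprr1a (-2.005, 0.26), Tnfrsf12a (-0.35, 1.48), Odc1 (-0.25, 0.95), Lyz2 (-0.65, 0.55), Cd3g (-0.75, 0.47), Gzma (-1.16, 0.59) and Ptprc (-0.61, 0.53). Higher in 1SA but lower in 2SA were Gadd45g (1.67, -1.10), Plk3 (1.91, -1.22), Socs3 (1.11, -0.32), Errfi1 (0.28, -0.77), Dusp4 (1.09, -0.28), Fst (0.79, -0.55), Tat (0.43, -0.33), Clec4f (0.45, -1.56) and Rgs5 (0.56, -0.66). Both values of a gene share the WT array, each group is 1 array, and the difference between the mutants was not tested.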

How the results depend on the processing

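No paired analysis was possible because the design has 1 array for each construct and no test was made. Of the differences of single members under the alternatives, 208 moved by less than the error between spots and 14 moved by more. All 14 came with normexp, under which 16 stayed. The rescaled series matrix, no filter, the mean of probes and the stricter filter could not move the difference of a member, so the 208 overstate the stability. No difference that was beyond the error between spots changed sign. Within that error, Ier2 in 2SA against WT became -0.04 and Junb in 2SA against 1SA -0.07 with normexp, and Atf3 in 2SA against 1SA became 0.04 with the unscaled series matrix. The count of members 2-fold higher than WT was 1 in 1SA at the 3-fold threshold. In 2SA it was 0 with normexp, 0 with the stricter filter and 0 at the 3-fold threshold. Between the mutants the count higher in 2SA was 0 under the same 3 alternatives, and the count lower was 0 with normexp and at the 3-fold threshold. With normexp, which by its construction (an added offset) brings dim probes closer together, the difference of Fos in 2SA from WT was 0.52, that of Ier3 0.74, and that of Egr1 between the mutants -0.93. The stricter filter left only 4 members, Jun, Egr1, Klf6 and Myc. Their medians were 0.74 in 1SA against WT, 0.51 in 2SA against WT and -0.52 between the mutants, and the 2SA median of all 10 against WT was 0.26 with normexp. For the other lists, 1227 values stayed and 99 moved.

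No scaling moved the median of all genes by more than 0.08. The treatment of dim probes moved the counts over all genes by more than 1.5 times. The main counts and those with normexp are over 13623 genes. With no filter they are over 20262 and under the stricter filter over 8572, so those counts also differ by the number of genes. For 1SA relative to WT, 99 genes were 2-fold higher and 155 lower, against 50 and 47 with normexp, 553 and 788 with no filter, and 45 and 54 under the stricter filter. For 2SA relative to WT, 153 and 74 became 63 and 24, 584 and 723, and 59 and 22. Between the mutants, 337 and 153 became 151 and 54, 839 and 685, and 147 and 63. The share that was higher went from 39.0% to 51.5% in 1SA with normexp, and with no filter from 67.4% to 44.7% in 2SA and from 68.8% to 55.1% between the mutants. The cause was not tested. Dim members (Fos, Fosb, Junb and Ier3, with intensities under 100 on at least 1 array) carry the largest error between spots, and the animals behind each array carry an error that was not measured.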
